A study of Rattus norvegicus with 4 samples.

Results

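The miRNAs rno-miR-122-5p, rno-miR-192-5p and rno-miR-194-5p, best known from liver, gut and serum, were followed in chondrocytes and in the matrix vesicles (MVs) that these cells leave in the matrix. They were picked by name, and all 3 were listed among the 740 mature miRNA names of the count table. Small RNA was sequenced from 1 library each of RC-cells (rat resting zone chondrocytes), RC-MVs, GC-cells (growth zone chondrocytes) and GC-MVs. All were untreated cultures at passage 4 of costochondral cartilage from male Sprague Dawley rats, grown to confluence with ascorbic acid and 10% fetal bovine serum. The serum was cleared of exosomes by centrifugation. MVs were pelleted from the trypsin digest of the cell layer, after serum of the same kind had stopped the digestion.

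miR-122 is the most abundant miRNA of hepatocytes, where it controls lipid and cholesterol metabolism, and it is released into serum when the liver is damaged. miR-192 and miR-194 are made in liver, gut and kidney epithelium, and miR-192 acts in the p53 response. A miRNA finds its targets mainly through its seed, which is bases 2 to 8 counted from the 5′ end, so miRNAs with different seeds have different sets of targets.

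The mature sequences are shown because the 3 miRNAs carry 3 different seeds, given in capitals, and because miR-215 carries the seed of miR-192-5p. All are rat RefSeq sequences of the GRCr8 assembly, read 5′ to 3′.
miR-122-5p: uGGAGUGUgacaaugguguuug
miR-192-5p: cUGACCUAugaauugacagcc
miR-194-5p: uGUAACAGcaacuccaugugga
miR-215: aUGACCUAugauuugacagaca
Among the 693 mature names in the RefSeq table, no other name shared the seed of miR-122-5p or miR-194-5p, and only miR-215 shared that of miR-192-5p. The longest run shared by miR-192-5p and miR-215 was 10 bases. miR-215 was not analysed here.

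Mir122 lies on the plus strand of chromosome 18, within the span of a transcribed pseudogene and opposite Mir3591, which is annotated on the minus strand at the same place. Mir194-2 and Mir192 are direct neighbours on the plus strand of chromosome 1, between Atg2a and Ehd1. A second copy, Mir194-1, lies on chromosome 13 within the span of Iars2, the gene of the mitochondrial isoleucyl-tRNA synthetase, next to Mir215. The hairpins of Mir122 and of both miR-194 loci are shown with their annotated mature arms in capitals, because both miR-194 hairpins give the same mature miRNA and because only 1 arm of the miR-122 hairpin was read.
Mir122: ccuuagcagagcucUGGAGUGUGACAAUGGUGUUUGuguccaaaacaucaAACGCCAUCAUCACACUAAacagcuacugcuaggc
Mir194-2: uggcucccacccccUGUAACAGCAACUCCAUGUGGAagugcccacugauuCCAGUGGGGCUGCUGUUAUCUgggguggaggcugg
Mir194-1: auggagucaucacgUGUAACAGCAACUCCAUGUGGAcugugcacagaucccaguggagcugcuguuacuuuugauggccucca
The longest run shared by both miR-194 hairpins was 22 bases and was the mature miR-194-5p itself.

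Counts are miRNA reads, and a level is the percent of all miRNA reads of the library. The cell libraries held 6517329 (RC-cells) and 7414467 (GC-cells) miRNA reads, and the MV libraries 1108821 (RC-MVs) and 982543 (GC-MVs), so the cells had 5.88 and 7.55 times as many miRNA reads as their MVs. Each group was a single library, so no difference has a replicate check, and no test was made. All intervals are at the 95% level and cover counting error only. PCR copies of 1 molecule were counted as separate reads, so the intervals may be too narrow even for that. In pooled vesicles, fewer vesicles with a miRNA and fewer copies per vesicle cannot be told apart. The chondrocyte miRNAs miR-140-3p and miR-140-5p were read in all 4 libraries, and miR-140-3p made up 0.383% of the reads of RC-cells and 0.951% of those of RC-MVs, with 0.506% and 0.794% in the growth zone pair. miR-140-5p went the other way, from 0.071% to 0.00848% and from 0.0808% to 0.0216%.

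miR-122-5p was rare in both cell types and abundant in both kinds of MVs. It had 32 reads in RC-cells, which is 0.000491% of the miRNA reads (Wilson interval from 0.000348% to 0.000693%). In RC-MVs it had 4447 reads, or 0.401% (0.389% to 0.413%). In GC-cells it had 34 reads, or 0.000459% (0.000328% to 0.000641%), and in GC-MVs 11225 reads, or 1.14% (1.12% to 1.16%). Both MV libraries lay far above both cell libraries, and the cells of the zones could not be told apart by this miRNA. By number of reads miR-122-5p ranked 338 of the 496 miRNAs read in RC-cells and 332 of 501 in GC-cells, but 31 of 431 in RC-MVs and 10 of 431 in GC-MVs.

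miR-192-5p was lower in RC-MVs than in their cells and close to level between GC-MVs and GC-cells. It had 1551 reads in RC-cells (0.0238%, interval from 0.0226% to 0.025%) and 180 reads in RC-MVs (0.0162%, from 0.014% to 0.0188%). In the growth zone it had 2504 reads in GC-cells (0.0338%, from 0.0325% to 0.0351%) and 341 reads in GC-MVs (0.0347%, from 0.0312% to 0.0386%). RC-MVs were the lowest of the 4 libraries, and the intervals of GC-cells and GC-MVs overlapped. It ranked 122 in RC-cells and 127 in RC-MVs, and 97 and 100 in the growth zone pair.

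miR-194-5p was the least abundant of the 3 in both kinds of MVs, whereas miR-122-5p was the least abundant in both cell types. It had 269 reads in RC-cells (0.00413%, interval from 0.00366% to 0.00465%) and 10 reads in RC-MVs (0.000902%, from 0.00049% to 0.00166%). In the growth zone it had 375 reads in GC-cells (0.00506%, from 0.00457% to 0.0056%) and 26 reads in GC-MVs (0.00265%, from 0.00181% to 0.00388%). Both MV libraries lay below both cell libraries, with RC-MVs at the bottom. The few reads in MVs leave wide intervals for every value of miR-194-5p there.

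**Figure D1:**
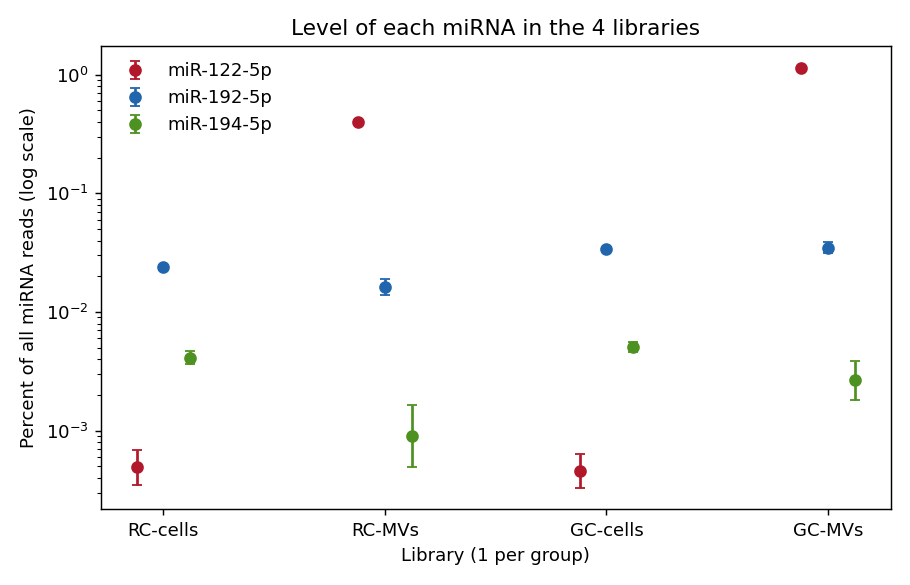
Percent of all miRNA reads (log scale) of miR-122-5p, miR-192-5p and miR-194-5p in the 4 libraries, 1 per group. Bars are 95% Wilson intervals for counting error. miR-122-5p is the lowest of the 3 in both cell libraries and the highest in both MV libraries, at 0.401% in RC-MVs and 1.14% in GC-MVs.

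The first comparison asked which miRNAs MVs hold in larger or smaller proportion than their parent cells. RC-MVs held a share of miR-122-5p that was 817-fold above the share in their cells (exact interval from 578 to 1196), and in GC-MVs it was 2491-fold above (1782 to 3599). When miRNAs under 10 reads in either library were left out, this was the largest ratio in each zone, of 293 for RC and 275 for GC. Within that set the next in both zones was miR-320-3p, with ratios of 27.1 and 15.2. The limit of 10 reads leaves out blood-cell miRNAs that were rarer in cells, such as miR-451-5p (801 for RC and 1322 for GC), miR-144-3p (423 and 385) and miR-223-3p (282 for RC, from 1 cell read). Set against miR-144-3p within libraries, miR-122-5p rose by 1.93 times from cells to MVs for RC (0.458 to 8.13), where the interval included 1, and by 6.47 times for GC (1.97 to 21.3). The cell side of both miR-122-5p ratios rests on 32 and 34 reads, which sets the width of the intervals.

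miR-192-5p and miR-194-5p did not share this pattern. In the resting zone the share in MVs over that in cells was 0.682 for miR-192-5p (interval from 0.581 to 0.796) and 0.219 for miR-194-5p (0.104 to 0.408), so that miR-194-5p was 4.58-fold lower in RC-MVs. In the growth zone it was 1.03 for miR-192-5p (0.915 to 1.15) and 0.523 for miR-194-5p (0.337 to 0.779). For miR-192-5p in the growth zone the interval included 1, and its side of 1 changed with the scaling, from 0.88 to 1.1. Over all miRNAs read in both libraries the median ratio was 1.06 for RC and 1.1 for GC.

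With a 2-fold difference of percents as the call, as used by the study, 1 of the 3 miRNAs (miR-122-5p) was called higher in RC-MVs, against 33.6% of the 414 miRNAs read in both libraries. One (miR-194-5p) was called lower in RC-MVs, against 30.4%. In the growth zone miR-122-5p was called higher in GC-MVs, against 32.1% of 417 miRNAs, and 0 of 3 were called lower, against 25.2%. The ratio of miR-194-5p lay just short of 2-fold lower there, and it passed 2-fold in 3 of 6 settings, the one used here included among the 6, at 0.448 with edgeR's TMM normalization. A call at this threshold was thus common among all miRNAs.

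**Figure D2:**
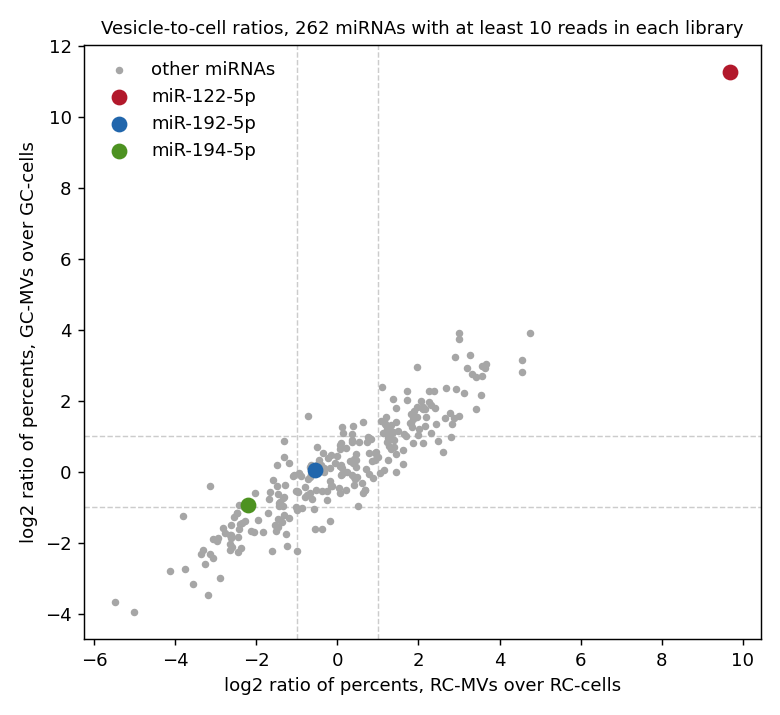
Log2 ratio of percents of RC-MVs over RC-cells (x axis) against GC-MVs over GC-cells (y axis) for the 262 miRNAs that had 10 or more reads in every library, dashed lines marking 2-fold. Among these, miR-122-5p lies alone at 9.67 and 11.28, while miR-192-5p (-0.55 and 0.04) and miR-194-5p (-2.19 and -0.93) lie among the other miRNAs. Blood-cell miRNAs with under 10 cell reads, such as miR-451-5p (9.64 and 10.37) and miR-144-3p (8.73 and 8.59), are not plotted.

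Read ratios between miRNAs within 1 library need no scaling between libraries. In RC-cells miR-192-5p had 48.5 reads for each read of miR-122-5p (exact interval from 34.2 to 71.1), and in GC-cells 73.6 (52.6 to 107). In RC-MVs the order was turned, with 24.7 reads of miR-122-5p for each of miR-192-5p (21.3 to 28.8), and in GC-MVs with 32.9 (29.6 to 36.8). The read ratio of miR-122-5p to miR-192-5p was therefore 1197 times as large in RC-MVs as in RC-cells (819 to 1752, log-normal interval on the 4 counts) and 2424 times as large in GC-MVs as in GC-cells (1700 to 3458). Library preparation favours some sequences over others, so the change of such a ratio between libraries says more than its size in 1 library.

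Against miR-194-5p the turn was larger. The read ratio of miR-122-5p to miR-194-5p was 0.119 in RC-cells and 0.0907 in GC-cells, but 445 in RC-MVs (interval from 242 to 928) and 432 in GC-MVs (294 to 661). miR-192-5p and miR-194-5p, which are neighbours at the chromosome 1 locus, also parted from each other in MVs. There were 5.77 reads of miR-192-5p per read of miR-194-5p in RC-cells (5.06 to 6.59) and 6.68 in GC-cells (5.99 to 7.46), against 18 in RC-MVs (9.56 to 38.2) and 13.1 in GC-MVs (8.8 to 20.4). The ratio was thus 3.12 times as large in RC-MVs as in RC-cells (1.63 to 5.98) and 1.96 times as large in GC-MVs as in GC-cells (1.3 to 2.97), and both intervals lay above 1.

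**Figure D3:**
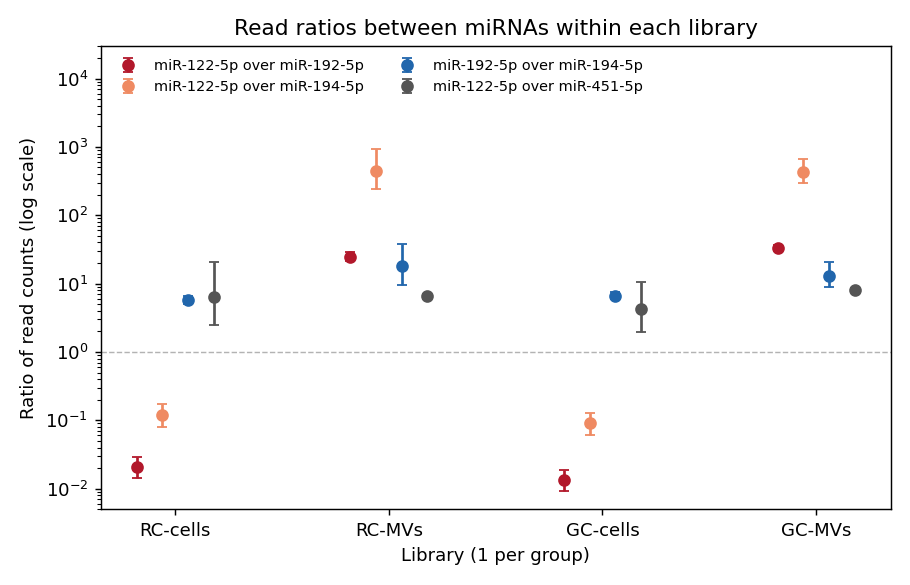
Ratios of read counts (log scale) between pairs of miRNAs within each of the 4 libraries, with exact 95% intervals for counting error. miR-122-5p goes from below 1 read per read of miR-192-5p in cells to 24.7 in RC-MVs and 32.9 in GC-MVs, while its ratio to miR-451-5p lies between 4.25 and 8.01 in all 4 libraries.

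The second comparison set the zones side by side. All 3 miRNAs were higher in GC-MVs than in RC-MVs. The ratio was 2.85 for miR-122-5p (interval from 2.75 to 2.95), 2.14 for miR-192-5p (1.78 to 2.58) and 2.93 for miR-194-5p (1.37 to 6.82, from 26 and 10 reads). All 3 passed 2-fold, against 14.6% of the 397 miRNAs read in both MV libraries, and 0 of 3 were lower in GC-MVs, against 24.7%. The balance turned with some scalings, to 20.7% higher and 17.9% lower with DESeq2's size factors and to 31% and 10.1% without 3 abundant miRNAs (miR-143-3p, miR-22-3p, miR-21-5p) in the total. The whole interval lay above 2-fold for miR-122-5p alone. Each of the 3 was also above 2-fold in the alternatives tried. Leaving these 3 abundant miRNAs out of the total moved the ratios up by 1.55 times, to 4.41 for miR-122-5p, 3.31 for miR-192-5p and 4.54 for miR-194-5p. By size of the ratio, miR-194-5p ranked 10, miR-122-5p 11 and miR-192-5p 28 of the 271 miRNAs that reached 10 reads in each MV library. Of the blood-cell and endothelial miRNAs listed, 4 of 7 passed 2-fold higher in GC-MVs and 0 lower, with a median ratio of 2.32. Those that passed were miR-451-5p at 2.32 (2.12 to 2.55), the leukocyte miR-223-3p at 2.68 (1.9 to 3.84), miR-142-5p at 4.51 (2.42 to 9.04) and the endothelial miR-126a-3p at 4.16 (3.5 to 4.96). The others were miR-142-3p at 1.84 (1.33 to 2.56), and miR-144-3p at 1.2 (0.949 to 1.52) and miR-150-5p at 1.4 (0.865 to 2.29), whose intervals included 1. Their part in the zone ratio of miR-122-5p was not tested.

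The cells of the zones differed less. The ratio of GC-cells to RC-cells was 0.934 for miR-122-5p (interval from 0.559 to 1.56), 1.42 for miR-192-5p (1.33 to 1.51) and 1.23 for miR-194-5p (1.04 to 1.44). None of the 3 passed 2-fold in either direction, against 5.70% of 474 miRNAs called higher and 13.7% called lower in GC-cells. This balance also turned under the other scalings, for example to 10.8% higher and 7.17% lower with TMM. miR-192-5p ranked 34 and miR-194-5p 58 from the top of 379 miRNAs. The direction for miR-122-5p is not determined, since its ratio went from 0.933 to 1.2 with the scaling.

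The vesicle-to-cell ratio itself was larger in the growth zone than in the resting zone for all 3 miRNAs. It was 3.05 times as large for miR-122-5p (interval from 1.88 to 4.95), 1.51 times for miR-192-5p (1.24 to 1.82) and 2.39 times for miR-194-5p (1.14 to 5.05). Over the 262 miRNAs that reached 10 reads in every library the log2 of this quotient had a median of 0.00, with the central 80% between -1.07 and 1.08. By their point values, miR-122-5p (1.61) and miR-194-5p (1.26) lay above this range, ranking 8 and 19, and miR-192-5p (0.59) lay inside it, ranking 72. The intervals of miR-122-5p and miR-194-5p reached into the range, so their places outside it are not determined. This quotient is made from the same 4 libraries as the zone ratios and is not separate evidence.

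**Figure D4:**
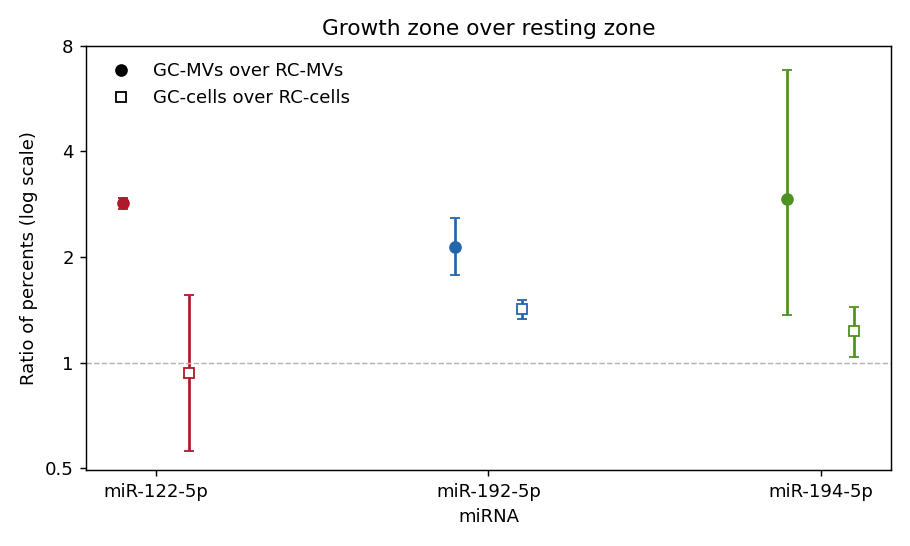
Ratio of percents (log scale) of the growth zone over the resting zone for each miRNA, in MVs (filled circles) and in cells (open squares), with exact 95% intervals for counting error. The MV ratios are 2.85, 2.14 and 2.93, and the cell ratios lie between 0.934 and 1.42.

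The opposite arms of the hairpins were rare. miR-122-3p had 0 reads in all 4 libraries, also in GC-MVs beside 11225 reads of the 5p arm, where the floor of 3 reads used for a count of 0 is 0.000305% of the miRNA reads. Set against this floor, the 5p arm was at least 3742-fold higher than the 3p arm there and at least 1482-fold higher in RC-MVs. The antisense miR-3591 also had 0 reads in all 4 libraries, so all reads counted at this place were assigned to the Mir122 strand. miR-192-3p had 5 reads in each MV library, 8 in RC-cells and 9 in GC-cells. It made up 0.513% of the reads of both arms in RC-cells (exact interval from 0.222% to 1.01%) and 2.7% in RC-MVs (0.883% to 6.19%), and 0.358% in GC-cells (0.164% to 0.679%) and 1.45% in GC-MVs (0.471% to 3.34%). Its own ratio of MVs to cells was 3.67 for RC (0.946 to 12.7) and 4.19 for GC (1.1 to 13.9), beside 0.682 and 1.03 for the 5p arm. miR-194-3p had 3 reads in RC-cells, 8 in GC-cells and 0 in both MV libraries, which is within what the depth of the MVs allows.

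The reads of miR-194-5p were listed at both of its loci. Mir194-2, the neighbour of Mir192, had 237 and 333 reads in RC-cells and GC-cells and 8 and 22 in their MVs, and Mir194-1 had 32, 42, 2 and 4 reads in the same order. The share at Mir194-2 was 88.1% in RC-cells (interval from 83.6% to 91.7%), 88.8% in GC-cells (85.2% to 91.8%), 80% in RC-MVs (44.4% to 97.5%) and 84.6% in GC-MVs (65.1% to 95.6%). The split was alike in all 4 libraries within counting error. It was more uneven than for most miRNAs with 2 loci, since the larger locus held under 60% of the reads for 14 of 18 such names with at least 100 reads in RC-cells. How the authors assigned reads that match both loci is not given in the sources used here, so the split is a property of the table and was not read as the output of the loci.

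The other miRNAs listed for liver and gut epithelium had few reads in these libraries, apart from miR-31a-5p. The list does not cover all miRNAs of these tissues. Of 10 listed names 9 were in the table, and miR-802-5p and miR-141-3p had 0 reads in all 4 libraries. The list summed to 0.148% of the reads of RC-cells and 0.153% of those of GC-cells, and to 0.196% and 0.199% in RC-MVs and GC-MVs. Nearly all of it came from miR-31a-5p, which many cell types make, at 0.147%, 0.152%, 0.195% and 0.197% in this order. In the resting zone pair 1 of the 4 list miRNAs read in both libraries passed 2-fold upward in MVs and 1 passed it downward, against 33.6% and 30.4% of all miRNAs, and the median of the 4 ratios was 0.895. In the growth zone pair 2 of 6 passed it upward and 0 downward, against 32.1% and 25.2%, with a median of 1.42. miR-375-3p, a miRNA of endocrine and gut epithelium, was the one called higher in both zones, with 8 reads in each MV library, 1 in RC-cells and 2 in GC-cells. These few reads gave ratios of 47 (6.3 to 2086) for RC and 30.2 (6.02 to 292) for GC.

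Of the miRNAs of blood cells and endothelium, some were close to miR-122-5p in their vesicle-to-cell ratios and others were not. Of 8 listed names 7 were in the table, and the study had picked several of them, and miR-122-5p itself, for their enrichment in MVs on a PCR array, so the list is no independent evidence of direction. In the resting zone 6 of 7 passed 2-fold upward in MVs, against 33.6% of all miRNAs, with a median ratio of 121. In the growth zone 6 of the 6 read in both libraries did so, against 32.1%, with a median of 74.4. Single members differed widely. The ratio of miR-126a-3p was 0.608 for RC (0.515 to 0.714), so lower in MVs, and 2.97 for GC (2.7 to 3.26). That of miR-150-5p was 3.29 for RC and 4.83 for GC, and that of miR-142-5p was 6.95 and 43.6. For miR-142-3p it was 121 and 127. The list summed to 0.026% of the reads of RC-cells and 0.0223% of those of GC-cells, and to 0.104% and 0.252% in RC-MVs and GC-MVs. In the cells most of it came from the endothelial miR-126a-3p, and the leukocyte miR-223-3p had 1 read in RC-cells and 0 in GC-cells.

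The erythroid miR-451-5p, set beside miR-122-5p after its values had been seen, had 5 reads in RC-cells against 681 in RC-MVs, and 8 against 1401 in the growth zone pair. Its vesicle-to-cell ratio was 801 for RC (interval from 341 to 2473) and 1322 for GC (669 to 3067), and both intervals overlapped those of miR-122-5p. There were 6.4 reads of miR-122-5p per read of miR-451-5p in RC-cells (2.48 to 21), 6.53 in RC-MVs (6.02 to 7.09), 4.25 in GC-cells (1.93 to 10.6) and 8.01 in GC-MVs (7.58 to 8.48). From cells to MVs this read ratio changed by 1.02 times for RC (0.396 to 2.63) and by 1.89 times for GC (0.871 to 4.08), and both intervals included 1. Set against miR-126a-3p in the same way, miR-122-5p changed by 1343 times (916 to 1969) and 840 times (592 to 1191). Against miR-142-3p it changed by 6.72 times for RC (2.01 to 22.5) and 19.6 times for GC (8.06 to 47.7). Against miR-142-5p the change was 118 times (49 to 282) and 57.1 times (26.1 to 125). Against miR-150-5p it was 248 times (143 to 431) and 515 times (307 to 864). With miR-144-3p it was 1.93 times for RC (0.458 to 8.13) and 6.47 times for GC (1.97 to 21.3). With miR-223-3p it was 2.9 times for RC (0.388 to 21.6), from 1 cell read. It had no value for GC, where GC-cells held 0 reads of miR-223-3p. For RC the intervals with miR-144-3p and with miR-223-3p both included 1. The part of blood or serum RNA in the level of miR-122-5p was not tested.

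**Figure D5:**
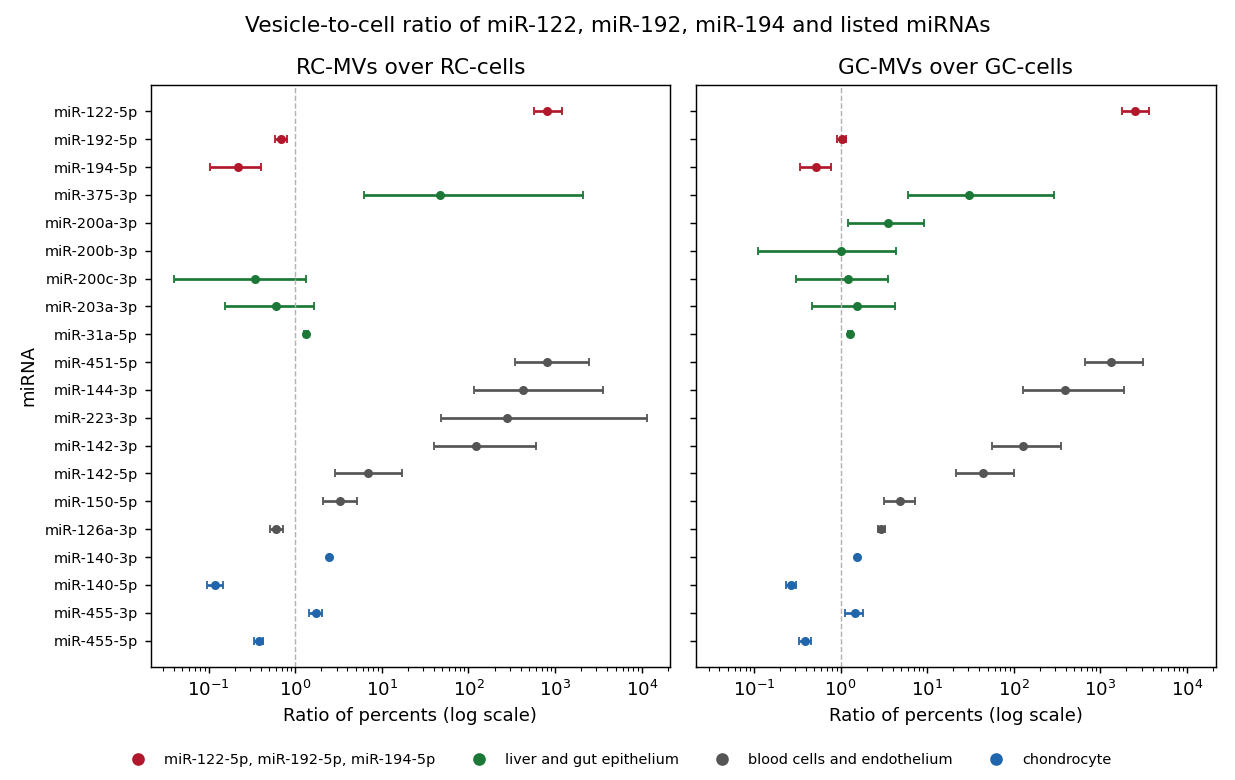
Ratio of percents of MVs over cells (log scale) in the resting zone (left) and the growth zone (right) for listed miRNAs that were read in both libraries of a pair, with exact 95% intervals for counting error. miR-122-5p lies with miR-451-5p, at 801 and 1322, and apart from miR-192-5p and miR-194-5p. miR-223-3p has no point on the right because GC-cells held 0 reads.

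The likeness of patterns was measured as the Euclidean distance between the log2 percents of the 4 libraries, each centred on its own mean, over the same 262 miRNAs. With only 4 libraries it is a description. The nearest to miR-122-5p was miR-320-3p at a distance of 6.50. miR-92a-1-5p followed at 6.97 and then came miR-490-3p at 7.02, so that no miRNA in this set came close to it. miR-451-5p had too few reads in the cells to enter. The nearest to miR-192-5p were miR-145-3p (0.25), miR-148b-5p (0.47) and miR-330-5p (0.49). The nearest to miR-194-5p were miR-31a-3p (0.29), miR-218a-5p (0.30) and miR-148a-3p (0.31), whose ratios of MVs to cells were 0.18, 0.181 and 0.187 for RC and 0.45, 0.45 and 0.52 for GC. miR-192-5p and miR-194-5p were 1.36 apart, and 39 of the other 261 miRNAs lay nearer to miR-194-5p than miR-192-5p did.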

How the data were processed

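The authors sequenced small RNA on an Illumina HiSeq, aligned reads with Bowtie2 to the rat build Rnor_6.0 (annotation release 105), tabulated miRNAs with miARma-Seq and deposited read counts for 774 loci, unnormalized, 1 column per library. Tool versions, trimming and the handling of multiply matching reads are not given in the sources used here.

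Here, counts were summed by mature name, giving 740 names, 28 of them with more than 1 locus, and expressed as percent of library miRNA reads. A call was a 2-fold ratio, taken over the names that were read in both libraries of a pair. Intervals are Wilson for levels, exact Clopper-Pearson for ratios and log-normal for quotients of ratios. The script for calls and intervals was tested on simulated data. No test was made, each group being a single library. The miRNAs and lists were chosen with earlier results of these data known. The named miRNAs are the 3 chosen ones, their other arms, miR-215, miRNAs sharing a seed, the 3 nearest in pattern to each, 2 lists and the chondrocyte markers. The comparisons with miR-3591 and miR-451-5p and the split over loci were added after the values were seen. The settings changed were the scaling (TMM of edgeR, or size factors of DESeq2), totals without 3 abundant miRNAs (miR-143-3p, miR-22-3p, miR-21-5p), a pseudocount of 0.5, 1 locus per name, at least 10 reads, a whole interval beyond 2-fold and a 4-fold threshold. All 3 miRNAs, and 660 of 740 names, matched the RefSeq sequence table of GRCr8. The PCR results of the study were not used here. Python 3.11.15 (numpy 2.4.6, pandas 2.3.3, scipy 1.17.1, matplotlib 3.10.9) and R 4.3.3 (edgeR 4.0.16, DESeq2 1.42.0) were used.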

Additional observations from a re-analysis of the deposited data

Results flagged for a closer look

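The vesicle-to-cell ratio of miR-192-5p lay on opposite sides of 1 in the zones, at 0.682 (interval from 0.581 to 0.796) in the resting zone and 1.03 (0.915 to 1.15) in the growth zone. With 1 library per group the difference was not tested. With edgeR's TMM normalization and DESeq2's size factors the growth zone value was 0.88 and 0.928, on the same side as the resting zone.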

How the results depend on the processing

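The labels give no replicate numbers, and a fit of vesicles against cells blocked by zone was not run. Of 60 alternative values of the 12 ratios of the 3 miRNAs, 49 stayed inside the counting interval. With edgeR's TMM normalization the ratio of GC-MVs to GC-cells was 0.88 for miR-192-5p, that of GC-MVs to RC-MVs was 3.28 for miR-122-5p, and that of GC-cells to RC-cells was 1.79 for miR-192-5p and 1.55 for miR-194-5p. With DESeq2's size factors the ratios were 3.38 for miR-122-5p between MVs, and 1.82 and 1.57 for miR-192-5p and miR-194-5p between cells. With miR-143-3p, miR-22-3p and miR-21-5p left out of the total, they were 4.41 for miR-122-5p and 3.31 for miR-192-5p between MVs, and 1.77 and 1.53 between cells. This last scaling moved every ratio of GC-MVs to RC-MVs by 1.55 times, and the 3 scalings moved those between cells by 1.25 to 1.28 times. The ratio of miR-194-5p between GC-MVs and GC-cells passed 2-fold lower with TMM, size factors and 1 locus. The 16 alternative values of the read ratios within libraries stayed inside their intervals.

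The share of all miRNAs at least 2-fold higher depended on the call. With the whole interval beyond 2-fold it was 23.4% in RC-MVs over RC-cells, 17% in GC-MVs over GC-cells, 4.79% in GC-MVs over RC-MVs and 1.27% in GC-cells over RC-cells, and at 4-fold it was 17.4%, 14.6%, 3.27% and 1.48%. With TMM it was 27.1% in GC-MVs over GC-cells and 10.8% in GC-cells over RC-cells. With size factors it was 20.7% in GC-MVs over RC-MVs and 11.2% between cells, and with totals without the 3 abundant miRNAs 31% and 10.8%. With at least 10 reads it was 2.64% between cells. Of 32 alternative shares at least 2-fold lower, an alternative added after seeing the data, 15 moved outside their interval. Between MVs the share lower was 18.6% with TMM, 17.9% with size factors and 10.1% without the 3 abundant miRNAs, and between cells it was 7.17%, 6.75% and 7.38%. Depth limits miR-194-5p in MVs and miR-122-5p in cells.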
